A study of Mus musculus with 6 samples.

Results

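The cells described here are GL261-GSCs cells with high transcript levels of immediate early genes. For each cell, the UMIs (unique molecular identifiers, each standing for 1 captured transcript) of Fos, Fosb, Egr1, Junb, Ier2 and Atf3 were summed and divided by the cell's total UMIs. In each library the 10% of cells with the highest score, called the high cells, were compared with the 50% with the lowest score, called the low cells. High cells numbered 404, 537, 612 and 282 in replicates 1 to 4, or 1835 of the 18333 GL261-GSCs cells that passed the filters and of 27208 cells in the whole series. The matching low cells numbered 9167. The high cells are the upper range of a continuous score and not a cell type, and measured values chose them, so the levels of the 6 score genes are given below as a description.

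GL261, an established mouse glioma line, was grown with FCS (fetal calf serum) in differentiation medium and gave 2 libraries. GL261-GSCs are cultures labelled glioblastoma stem cells, kept in defined GSC medium and represented by 4 libraries. All 6 libraries share the same preparation: cells and neurospheres were dissociated with the enzyme mix Accutase, put in a lysis buffer with a non-ionic detergent, captured in droplets as cells or nuclei (which of these, the labels do not say), and made into 10x Genomics 5' libraries. No other treatment is labelled, and the labels do not say whether replicates came from separate cultures. The p-values here therefore hold for these libraries only. In fits with the library as a block they measure how the difference of high and low cells varies from library to library.

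Immediate early genes are transcribed within minutes of a stimulus such as a growth factor, stress or mechanical handling, without the need for new protein. Fos, Fosb and Junb encode subunits of the transcription factor AP-1, Egr1 encodes a zinc finger transcription factor, Atf3 a stress-induced factor of the ATF family, and Ier2 a nuclear protein of the early response. Their transcripts decay quickly, and in cultured and freshly dissociated cells they are known to respond both to growth signalling and to the preparation itself.

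Each library held between 80899005 and 121309232 UMIs. High cells had a median of 14748, 11188, 10584 and 8672.5 UMIs in replicates 1 to 4, and low cells 16282, 12457, 11937 and 9077, so the high cells were slightly shallower in all 4 libraries. Total UMIs are the divisor of the score, so the rule itself bears on this difference, which was not tested. The median share of mitochondrial UMIs was 1.10% ± 0.0563 in high and 1.11% ± 0.0804 in low cells (SD, n = 4; exact sign-flip permutation p = 0.375, 2-sided, smallest possible 0.125). Pairs of libraries shared 15 to 46 of their cell barcodes, where chance gives 15.4 to 44.5. No doublets were removed. Marker lists of other cell types gave the following: the 8 microglia and macrophage markers summed to at most 0.644 CPM (counts of UMIs scaled to a common total per sum of cells) in the high cells of any GL261-GSCs library and 0.455 CPM in low cells, and in the high cells Ptprc, C1qa, C1qb, Tyrobp and Fcer1g had 0 UMIs, Aif1 and Csf1r 4 each and Cx3cr1 1. In the more numerous low cells Csf1r had 35 UMIs, Fcer1g 5, Ptprc and C1qb 3 each, and Aif1, Cx3cr1, C1qa and Tyrobp 0. The 4 endothelial markers summed to at most 1.29 CPM, with Cldn5 and Cdh5 at 0. The 5 neuron markers summed to 1.67, 15.8, 49.1 and 58.0 CPM in high and 1.37, 13.8, 47.4 and 72.0 CPM in low cells, and in replicates 2 to 4 most of each sum came from Syt1. The 4 fibroblast markers summed to 13.4 to 27.9 CPM in high and 10.4 to 26.2 CPM in low cells, mostly from Col1a1. The progenitor factors Olig2 and Sox2 were present in high cells of every GL261-GSCs library, as were the radial glia and astrocyte genes Vim, Nes, Fabp7 and Slc1a3, while Gfap, Sox9, Aqp4 and Aldh1l1 had 3, 0, 0 and 2 UMIs over all GL261-GSCs cells.

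The score had no visible gap at the limit of the class. Its median over all cells was 250, 187, 192 and 191 CPM in replicates 1 to 4. The lowest high cell of replicate 1 stood at 895 CPM and the highest cell left out at 891. In replicates 2, 3 and 4 these neighbours were 633.2 and 633.1, 709.7 and 709.6, and 677 and 674. Within 10% of the cut lay 58, 73, 97 and 33 high cells and 73, 114, 118 and 63 cells below it. High cells held a median of only 20, 11, 12 and 10 score UMIs. They carried 36.3%, 39.7%, 37.8% and 40.1% of all score UMIs in their library, with 9.28%, 9.12%, 9.22% and 9.59% of its cellular UMIs.

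Few UMIs decide membership, so the contrast in the score was also measured in UMIs that had no part in the choice. When membership was decided on a random 50% of each cell's UMIs, the score in those same UMIs was 15.3, 24.2, 23.2 and 31.0 times as high in high as in low cells. In the UMIs not used for the decision it was 6.92, 7.09, 6.50 and 6.13 times as high. The second set of ratios was the smaller in each library, and its 4 values lay close together. At least 3 of the 6 score genes were detected in 93.1%, 82.1%, 81.9% and 77.3% of high cells, against 14.8%, 1.416%, 1.28% and 0.355% of low cells. Replicate 1 has the deepest cells and the highest shares in both classes.

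Among the score genes, Egr1 showed the steepest gradient. Egr1 stood at 493, 252, 345 and 383 CPM in the high cells of replicates 1 to 4 and at 10.2, 2.66, 3.77 and 3.53 in the low cells. Fos stood at 425, 360, 318 and 265 CPM in high cells and 28.1, 23.3, 20.5 and 17.4 in low cells. Junb stood at 173, 218, 213 and 242 against 22.3, 12.1, 12.3 and 12.6. For these genes every high-cell value lay above every low-cell value. Ier2, at 279, 240, 303 and 316 against 49.6, 33.6, 44.5 and 41.8, had the shallowest gradient. Atf3 stood at 125, 196, 72.5 and 90.2 against 15.6, 8.35, 4.25 and 4.25, and was higher in replicates 1 and 2 than in replicates 3 and 4 in both classes. Fosb was rare, with 7, 9, 8 and 9 UMIs in high cells and 2, 2, 4 and 0 in low cells. Egr1 was detected in 77.5%, 47.7%, 59.6% and 62.4% of high cells and in 4.71%, 1.416%, 1.90% and 1.78% of low cells after thinning each cell to 5000 UMIs. Without thinning the shares were 85.4%, 62.0%, 69.6% and 70.2% against 13.5%, 3.21%, 4.35% and 3.48%. As a measure of free RNA, barcodes of 100 to under 1000 UMIs held Egr1 at 71.3, 30.6, 46.9 and 62.5 CPM. The summed score genes stood at 307, 239, 255 and 291 CPM in that free RNA, above the 126, 80.0, 85.4 and 79.7 of low cells and below the 1496, 1267, 1252 and 1299 of high cells.

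**Figure D1:**
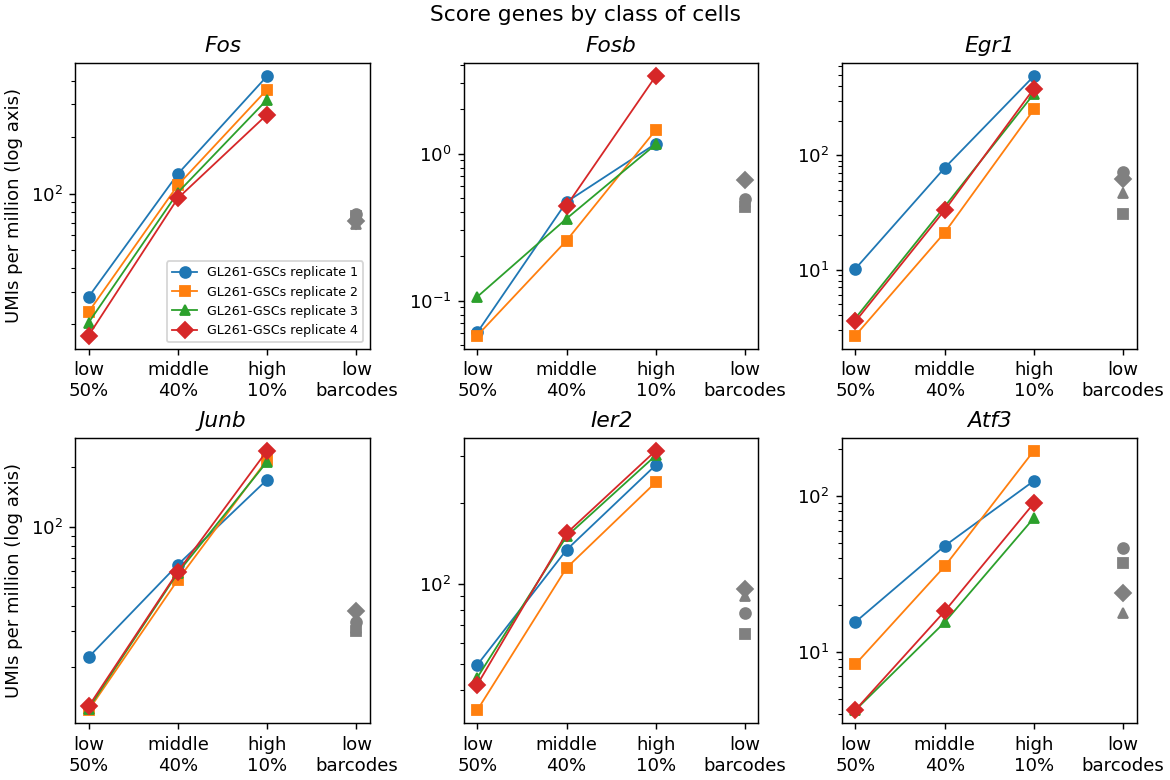
Levels of the 6 score genes (CPM, log axis) in the low, middle and high cells of the 4 GL261-GSCs libraries, with free RNA of low barcodes in grey; each symbol is 1 library, and Fosb has no point for the low cells of replicate 4, where it had 0 UMIs. Every gene climbs from low over middle to high cells, since these genes define the classes, and the free RNA values lie between the low and the high cells.

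To ask whether the 6 genes move together in single cells, each was left out of the score in turn and tested between the high and low cells defined by the other 5. UMIs were summed over the high and over the low cells of each library and compared with the edgeR quasi-likelihood test, with the library as a block, adjusting p-values over all genes tested (Benjamini-Hochberg). All 6 genes rose. Fosb was too rare in low cells for the abundance filter and entered the test only through its high cells, on few UMIs, so its call carries little weight. In log2 terms, Egr1 rose by 4.08 (SE 0.08, adjusted p = 6.77e-21), Fosb by 3.33 (SE 0.53, 0.000168), Junb by 2.33 (SE 0.08, 9.66e-13), Atf3 by 2.11 (SE 0.13, 2.35e-11), Fos by 1.76 (SE 0.08, 9.62e-11) and Ier2 by 1.34 (SE 0.07, 2.48e-09). In those fits 12.1% (without Egr1), 9.44% (Fosb), 8% (Junb), 8.05% (Atf3), 7.82% (Fos) and 12% (Ier2) of all genes were called higher. Called in either direction were 24.3%, 19%, 16%, 16.1%, 15% and 24.6%, in the same order, so a call was common and the sizes say more than the count. Without the block 4 of the 6 genes were called.

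Beyond the score genes, 2515 of 13140 genes (19.1%) differed between high and low cells at an adjusted p under 0.05, with 1252 higher (9.53%) and 1263 lower (9.61%). The 6 score genes were left out of this test. Most changes were small: the median absolute log2 ratio of the called genes was 0.28, and 145 rose and 10 fell at least 2-fold. The direction was the same in all 4 libraries for 2277 of the called genes. Under library size scaling without TMM, 1735 genes were higher and 682 lower, so the balance of rises and falls depends on the scaling, although the median of all genes moved only from -0.01 to 0.04. The count fell to 1305 without replicate 3, and to 13 when the library was not kept as a block.

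The 12 largest rises, taken among called genes at a mean log2 CPM of 4 or more with the same direction in all 4 libraries, ran from 1.47 to 3.13 on the log2 scale. CPM values from here on use TMM-scaled library sizes, unlike those above. Nupr1, a small stress-induced chromatin protein (ENSMUSG00000030717.9, chromosome 7, 126623249 to 126630861), stood at 78.9, 88.0, 39.7 and 32.3 CPM in the high cells of replicates 1 to 4 and at 6.82, 8.95, 4.85 and 8.17 CPM in the low cells. The classes did not overlap, and the log2 ratio was 3.13 (SE 0.13, adjusted p = 2.25e-12, edgeR). Spp1, which encodes the secreted matrix protein osteopontin (chromosome 5, 104435118 to 104441050), stood at 52.8, 78.4, 44.5 and 5.94 CPM against 9.50, 1.78, 12.7 and 2.50. High cells of replicate 4 lay below the low cells of replicates 1 and 3, so the classes overlap between libraries, while high exceeded low within each. The log2 ratio of Spp1 was 2.87 (SE 0.33, adjusted p = 2.70e-06, edgeR), 2.07 without replicate 2, 3.48 without replicate 3, and 1.44 and 2.22 with Junb or Atf3 left out of the score. Hmox1, the heme-degrading enzyme heme oxygenase 1, stood at 59.2, 195, 31.8 and 35.3 CPM against 20.4, 25.3, 8.52 and 9.79, a log2 ratio of 2.20 (SE 0.15).

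Gdf15, a stress-induced secreted member of the TGF-beta superfamily (chromosome 8, 70629393 to 70632456), stood at 27.6, 58.7, 38.3 and 64.3 CPM in high and 9.78, 12.1, 9.92 and 12.4 CPM in low cells. Its log2 ratio was 2.03 (SE 0.10, adjusted p = 2.88e-11, edgeR), with no overlap between the classes. Ddit3, which encodes the stress transcription factor CHOP (chromosome 10, 127290774 to 127296288), stood at 42.1, 90.4, 54.8 and 56.8 CPM against 16.1, 15.2, 14.4 and 20.2, also without overlap, at a log2 ratio of 1.92 (SE 0.13). Ppp1r15a encodes GADD34, a phosphatase subunit that restores translation after stress, and it was even across libraries at 35.5, 47.7, 50.002 and 46.1 CPM against 12.1, 13.1, 13.7 and 13.5. Trib3, a pseudokinase induced in the same stress response, stood at 39.3, 42.9 and 49.8 CPM in the high cells of replicates 2 to 4 but at 16.3 in replicate 1, against 10.7 to 15.3 CPM in low cells. Its rise in replicate 1 was therefore the smallest, 0.52 on the log2 scale, against 1.51 (SE 0.14) in the fit. Gadd45a, a growth arrest and DNA damage protein, rose by 1.52 (SE 0.13).

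Cd68 and Lgals3 are often used as macrophage genes, and both rose here. Cd68, a lysosomal membrane glycoprotein (chromosome 11, 69664213 to 69666153), stood at 31.1, 31.1, 50.9 and 46.1 CPM in high and 8.89, 4.97, 11.97 and 19.5 CPM in low cells, a log2 ratio of 1.96 (SE 0.13, adjusted p = 1.72e-09, edgeR). Lgals3, which encodes the sugar-binding protein galectin-3, stood at 118, 89.2, 490 and 354 CPM against 33.2, 10.99, 170 and 191, a log2 ratio of 1.68 (SE 0.16). Both classes of Lgals3 lay higher in replicates 3 and 4, so its classes overlap between libraries. The 8 microglia and macrophage markers, which do not include these genes, had the low sums given above, and their part in these rises was not tested. Id3, an inhibitor of basic helix-loop-helix factors (chromosome 4, 136143497 to 136145755), rose by 1.56 (SE 0.11), and Dusp4, a nuclear phosphatase of MAP kinases, by 1.47 (SE 0.11). Without cells holding a UMI of Mki67 or Top2a the log2 ratios of Nupr1, Hmox1, Gdf15, Ddit3 and Dusp4 were larger, at 3.72, 3.06, 2.86, 2.97 and 2.27. Nupr1 stood at 2.52 against all other cells, Hmox1 at 2.83 with the top 5% as high, and Gdf15 at 1.43 with Atf3 left out of the score. The cells scored between the classes lay between high and low cells in all 4 libraries for all 12 of these rises and for the 8 falls described below.

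Promoter sequences are shown for Atf3 in the score and for Nupr1 and Cd68 among the rises, because they hold motifs of ATF and AP-1 factors. They come from the 250 bases before the RefSeq start (GRCm38.p6), 5' to 3' on the strand of the gene. The windows of Atf3 and Nupr1 overlap annotated exons of the same gene, so only 30 bases around the motif are printed. Capitals mark the composite site of C/EBP and ATF factors (TGATGNAA, here on the other strand as TTGCATCA) in these 2 and the AP-1 site (TGANTCA) in Cd68. The cyclic AMP response element (TGACGTCA) and the CArG box were also searched, all on both strands.
Atf3, chr1:191183425-191183454, minus strand: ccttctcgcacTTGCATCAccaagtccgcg
Nupr1, chr7:126625562-126625591, minus strand: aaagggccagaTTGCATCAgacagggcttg
Cd68, chr11:69666171-69666420, minus strand: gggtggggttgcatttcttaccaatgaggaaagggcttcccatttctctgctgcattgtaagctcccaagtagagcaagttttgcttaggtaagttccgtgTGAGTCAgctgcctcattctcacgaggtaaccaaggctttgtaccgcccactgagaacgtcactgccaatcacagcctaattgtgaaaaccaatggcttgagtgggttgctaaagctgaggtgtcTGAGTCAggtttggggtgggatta
Atf3 and Nupr1 each hold the composite site once, from 110 to 103 bases before the start, and Cd68 holds the AP-1 site from 149 to 143 and from 24 to 18 bases before it. Among genes with a promoter there, 3.91% held the composite site, 7.82% the AP-1 site and 1.77% the cyclic AMP response element, and of the genes tested 2.33%, 5.27% and 3.2%. The same windows of 32851 promoters in the table held the composite site in 3.45%, the AP-1 site in 6.75%, the cyclic AMP response element in 1.55% and the CArG box in 1.47%. Of the 12 rises, 10 had a promoter in the table, and 2 of these genes held an AP-1 site (Cd68 and Ddit3), 1 the composite site (Nupr1) and 1 the cyclic AMP response element (Ppp1r15a). Over the 107 genes called higher at least 2-fold with a promoter in the table, 12.1% held an AP-1 site. The composite site, the cyclic AMP response element and the CArG box were each held by 4.67% of them. Of the genes tested 1.4% held the CArG box, and these differences in share were not tested. Of the 6 score genes 4 had a promoter in the table, and Fos, Fosb and Junb held none of these 4 motifs in this window. A match is a description of the sequence, not a binding site shown here.

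Of the 8 largest falls, 4 (Top2a, Nusap1, Aurkb and Cdk1) are in the G2/M list described below, and the others are Kpna2, H2afx, Cdc25b and Ccnf. Top2a, the topoisomerase that untangles chromosomes before mitosis (ENSMUSG00000020914.17, chromosome 11, 98992943 to 99024189), stood at 294, 276, 342 and 379 CPM in high cells and 485, 551, 721 and 655 CPM in low cells. The classes did not overlap, and the log2 ratio was -0.90 (SE 0.05, adjusted p = 4.42e-11, edgeR). Cdk1, the kinase that drives entry into mitosis (chromosome 10, 69335146 to 69352938), stood at 145, 156, 155 and 130 CPM against 251, 290, 290 and 220, a fall by 0.84 (SE 0.04). Kpna2, a nuclear import receptor, stood at 86.6, 76.1, 68.8 and 76.9 CPM against 139, 150, 164 and 133 and fell by 0.94 (SE 0.07). The other log2 ratios were -0.88 (SE 0.06) in the spindle protein Nusap1, -0.85 (SE 0.07) in the mitotic kinase Aurkb, -0.82 (SE 0.05) in the histone variant H2afx, -0.76 (SE 0.07) in the phosphatase Cdc25b and -0.76 (SE 0.08) in the cyclin Ccnf. All 8 were lower in the high cells of all 4 libraries. With Fos left out of the score, Top2a, Cdk1 and Kpna2 were still called, at -0.64, -0.47 and -0.59. Leaving out every cell with a UMI of Mki67 or Top2a kept 42, 68, 98 and 75 high and 209, 337, 490 and 373 low cells in replicates 1 to 4, and none of the 6 genes still tested was called: Kpna2, Aurkb, Cdk1 and H2afx then had log2 ratios of -0.30, -0.48, -0.17 and -0.13, Nusap1 and Cdc25b of 0.88 and 0.16, and Top2a and Ccnf were not tested.

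The promoter of Top2a, the most abundant of the 8 falls, is shown with 2 motifs common in cell cycle promoters in capitals, the CCAAT box (CCAAT) and the CHR element (TTTGAA), both searched on both strands.
Top2a, chr11:99024190-99024439, minus strand: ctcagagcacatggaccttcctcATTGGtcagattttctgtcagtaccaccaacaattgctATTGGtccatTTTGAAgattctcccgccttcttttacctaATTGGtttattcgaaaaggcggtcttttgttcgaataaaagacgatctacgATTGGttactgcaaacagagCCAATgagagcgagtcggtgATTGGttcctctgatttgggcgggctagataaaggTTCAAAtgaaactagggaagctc
It holds 6 CCAAT boxes and 2 CHR elements. Of the 6 falls with a promoter in the table, 5 held a CCAAT box and 4 a CHR element, where 37.5% and 18.3% of all genes in the table (33.8% and 16% of its promoters) hold them. Over the 971 genes called lower with a promoter in the table the shares were 43% and 14.1%, and over all genes tested 41.5% and 12.4%. The largest rises held these motifs too: of 10 with a promoter in the table, 6 held a CCAAT box (60%) and 3 a CHR element (30%).

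**Figure D2:**
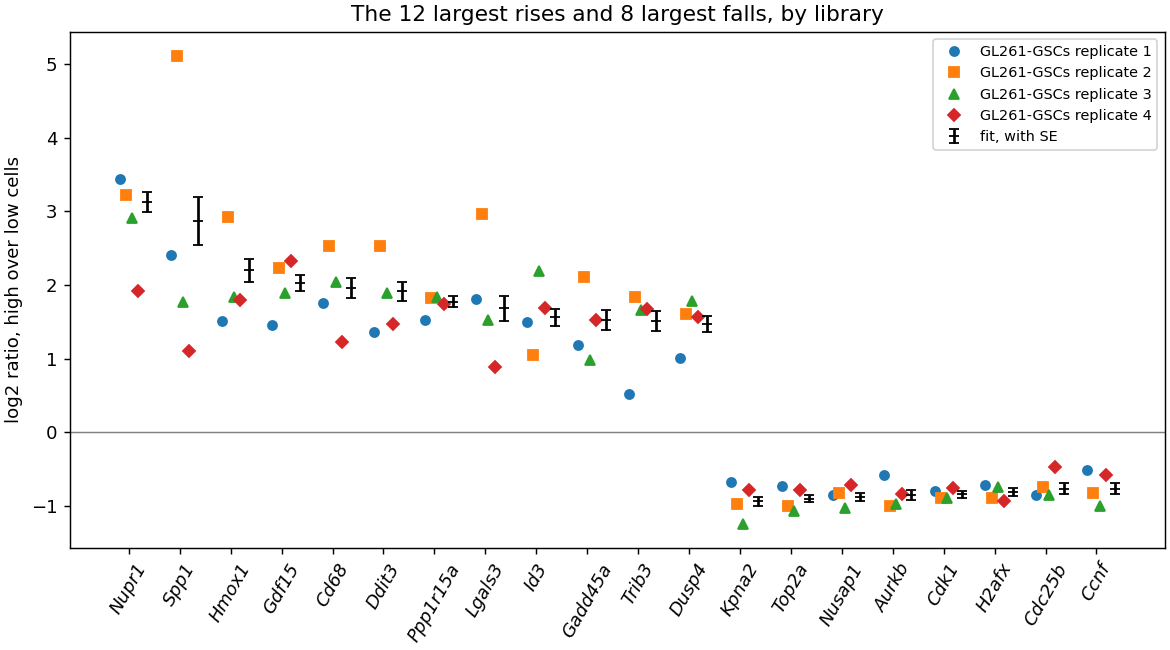
Log2 ratio of high over low cells for the 12 largest rises and 8 largest falls in each of the 4 GL261-GSCs libraries (symbols), with the edgeR fit and its SE in black. All 20 genes keep their direction in every library, the rises reach from 1.47 in Dusp4 to 3.13 in Nupr1, and Spp1 has the widest spread over libraries among these 20.

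Genes of 9 lists that bear on signalling, stress and the cell cycle were followed as groups, next to lists for lineage and for ribosomal and mitochondrial genes. The lists were chosen with earlier results of these data known. Of 45 other early-response genes, 41 were abundant enough to test, and 36 rose and 1 fell, with a median log2 ratio of 0.77 against -0.01 over all genes tested, of which 9.53% were called higher. Without the library block 5 of the 41 rose, 2 of 16 ATF4 genes rose, and no gene of the other lists described below was called. Egr2, the relative of Egr1, stood at 14.8, 13.7, 20.3 and 26.4 CPM in high and 0.309, 0.488, 0.910 and 0.442 CPM in low cells, a log2 ratio of 4.97 (SE 0.19, adjusted p = 7.66e-13, edgeR). Its ratio was 4.03 in thinned cells, 4.08 against all other cells and 5.67 with the top 5% as high. Egr2 and Nr4a3, both among the 36 that rose, passed the abundance filter only through their high cells. Their calls and ratios therefore rest on few UMIs in low cells. Zfp36, which destabilises AU-rich mRNAs, stood at 20.9, 28.8, 25.8 and 22.3 CPM against 6.26, 7.23, 5.84 and 7.21, a log2 ratio of 1.91 (SE 0.10), and 1.23 without cells holding a UMI of Mki67 or Top2a. Jun, the AP-1 partner of Fos, was even across libraries, at 274, 275, 271 and 260 CPM against 153, 165, 178 and 159, a log2 ratio of 0.72 (SE 0.04). The AP-1 members Fosl1 and Fosl2 rose by 1.40 and 1.23, and Jund by 0.14. The nuclear receptor Nr4a1 rose by 0.85 (SE 0.08), the phosphatase Dusp1 by 0.90 (SE 0.09), the Krüppel-like factors Klf4 and Klf6 by 1.60 (SE 0.17) and 0.78 (SE 0.05), Ier3 by 0.92 (SE 0.05) and the antiproliferative gene Btg2 by 0.75 (SE 0.07). The Btg2 call was lost without cells holding a UMI of Mki67 or Top2a (0.18, adjusted p = 0.427, edgeR).

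The early-response genes did not all move alike. Klf2 fell by 0.44 (SE 0.10). Myc, the growth regulator, was abundant at 515, 430, 557 and 551 CPM in high and 476, 419, 494 and 514 CPM in low cells, and its log2 ratio of 0.11 (SE 0.04, adjusted p = 0.0407, edgeR) was small, and its call was lost under DESeq2 and several other settings. Nr4a2, Sik1, Srf and Arid5b were not called, at log2 ratios of 0.35, 0.18, 0.19 and 0.06. Egr3, Egr4, Arc and Npas4 were too rare to test, with 35, 0, 6 and 1 UMIs over all GL261-GSCs cells.

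Of 15 tested genes that report or restrain ERK signalling, 8 rose and 1 fell, with a median of 0.13. Dusp6, the cytoplasmic phosphatase of ERK, stood at 269, 203, 149 and 124 CPM in high and 151, 105, 73.3 and 68.5 CPM in low cells, a log2 ratio of 0.92 (SE 0.05, adjusted p = 1.74e-11, edgeR). Both classes were highest in replicate 1, so the classes overlap between libraries, but high exceeded low in each. Dusp4, Dusp5, Spry2, Spry4, Phlda1, Errfi1 and Ccnd1 also rose, Dusp5 by 1.74, Errfi1, an inhibitor of the EGF receptor, by 1.17, and the receptor signalling inhibitor Spry4 by 0.54 (SE 0.08), a call lost without cells holding a UMI of Mki67 or Top2a (0.28). The cyclin Ccnd1 rose by only 0.13 (SE 0.04) and was higher in 3 of 4 libraries, and its call was lost under 7 settings that keep the block. Spry1, at -0.16 (adjusted p = 0.0487, edgeR), was only just called and was not called with DESeq2, limma-voom or library size scaling. The ETS factors Etv1, Etv4 and Etv5 were not called, at -0.10, -0.01 and 0.00.

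Of 16 tested genes of the ATF4 stress response, the program through which cells answer amino acid shortage and unfolded protein, 13 rose and none fell, with a median of 0.55. Besides Gdf15, Ddit3 and Trib3 these were Chac1, which degrades glutathione (1.92, SE 0.20), Sesn2 (0.82), Atf5 (0.76), the cystine transporter Slc7a11 (0.73), Cebpb (0.57), Atf4 itself (0.54), Cebpg (0.37), Slc3a2 (0.34), Slc7a5 (0.26) and Asns (0.23). Psat1 and Phgdh, enzymes of serine synthesis, and Ddit4, an inhibitor of mTORC1, were not called, at -0.09, -0.13 and 0.12. Ddit4 was called higher under 5 settings, at 0.13 to 0.23, among them thinned cells and the score without Egr1, and was higher in the high cells of 2 libraries and lower in the other 2. Atf3, which belongs to this response, is also a score gene. With Atf3 left out of the score, 1056 genes were higher and 1062 lower, 979 and 995 of them shared with the full score, and 12 of the 16 genes rose and 1 fell. The log2 ratios of Nupr1 and Trib3 were then 1.98 and 0.85.

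Of 8 tested NF-kB targets 7 rose, with a median of 1.14, and 3 of the 6 tested without cells holding a UMI of Mki67 or Top2a. In low cells Cxcl10 was near the floor in replicate 4 and Icam1 in replicate 3. Both therefore needed their high cells to pass the abundance filter. Cxcl10, a chemokine, stood at 23.8, 44.5, 17.8 and 2.23 CPM in high and 6.82, 9.30, 1.74 and 0.294 CPM in low cells, a log2 ratio of 2.35 (SE 0.17, adjusted p = 3.00e-09, edgeR) that was 1.416 with Atf3 left out of the score and 1.64 in thinned cells. The feedback inhibitors Nfkbia, Nfkbiz and Tnfaip3 rose by 1.07, 1.28 and 1.20, and Nfkb1 was not called, at 0.08. Cxcl2, named after its values were seen, was not tested because it was rare in most libraries. Of its UMIs in GL261-GSCs cells, 767 of 783 came from replicate 1, where high cells held 710. Of 9 tested p53 targets 4 rose, among them the cell cycle inhibitor Cdkn1a (0.49, SE 0.05) and the p53 ligase Mdm2 (0.49, SE 0.05), and 5 were not called. Without replicate 3 and with Fos left out of the score 2 p53 targets rose. The heat shock list was split, with 3 of 11 genes higher and 5 lower. Bag3 (0.44, SE 0.05), Dnajb1 (0.39) and Dnajb4 (0.27) rose, while Hspa8, Hsp90aa1, Hsp90ab1, Hspe1 and Hspd1 fell, with log2 ratios from -0.09 to -0.21. With library size scaling 3 rose and 3 fell, with DESeq2 1 rose and 3 fell, and without replicate 3 and with Fos left out of the score 2 rose and 3 fell. The inducible genes Hspa1a and Hspa1b had 1 and 0 UMIs over all GL261-GSCs cells. They are near-identical copies whose reads may not be assignable to either, so these counts may be too low. Of 9 hypoxia genes 4 rose and 2 fell, where 2 rose and 3 fell with Fos left out of the score. The oxidoreductase Ero1l rose by 0.61 (SE 0.05) and the glucose transporter Slc2a1 by 0.58, while the glycolysis genes Pgk1 and Ldha fell, at -0.14 and -0.16.

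Of 20 G1/S genes 15 fell and none rose, with a median of -0.24, and Tyms, which makes thymidylate, fell by 0.36 (SE 0.05) and Pcna, the replication clamp, fell by 0.26 (SE 0.05), a call lost without cells holding a UMI of Mki67 or Top2a (-0.37, adjusted p = 0.201, edgeR). Of 18 G2/M genes 14 fell and 1 rose, with a median of -0.34. Mki67, the proliferation marker, fell by 0.33 (SE 0.05), from 267, 261, 380 and 314 CPM in low to 230, 195, 273 and 277 CPM in high cells. With Fos left out of the score the calls of Mki67 and Tyms were lost, at -0.12 and -0.11 (adjusted p = 0.101 and 0.128, edgeR), and 7 of the 20 G1/S and 8 of the 18 G2/M genes fell. Cdc20, an activator of the anaphase-promoting complex, rose by 0.27 (SE 0.05). The share of cells holding any UMI of Mki67 or Top2a, after thinning to 5000 UMIs, was 73.0%, 67.4%, 70.1% and 61.0% of high cells and 77.6%, 79.4%, 75.7% and 63.2% of low cells. The share was lower in the high cells of all 4 libraries, a difference of -6.10 ± 4.15 percentage points (SD, n = 4; exact sign-flip permutation p = 0.125, 2-sided, the smallest 4 pairs allow, and 0.375 adjusted over 3 such tests). Unthinned shares were 80.4% ± 7.78 and 84.8% ± 7.93. Most cells of both classes held such a UMI. In replicate 4 the direction turned when the top 5% were taken as high (67.4% against 63.2%) and when the classes were set on thinned cells (63.6% against 63.4%). Leaving out all cells with such a UMI depends on depth and can leave dividing cells in both classes. In that fit 1011 of 10293 genes were called, 576 of them higher, and 479 of these were also higher in the main fit. The G2/M list had 3 genes higher and 1 lower of 16 tested. Among the other early-response genes 24 of 38 rose, and among the ATF4 genes 12 of 16.

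Lineage genes were followed in 3 lists. Of 14 tested genes of oligodendrocyte precursors 8 fell and none rose, with a median of -0.21, and 4 fell without cells holding a UMI of Mki67 or Top2a. Olig2, the lineage transcription factor, stood at 319, 318, 699 and 620 CPM in high and 430, 447, 856 and 747 CPM in low cells, a fall by 0.37 (SE 0.04, adjusted p = 1.08e-06, edgeR). Cntn1, a neural adhesion molecule, fell by 0.43 (SE 0.04), Sox10 fell by 0.24 and Sox2 fell by 0.17 (SE 0.05), the last not called under 8 other settings that keep the block. Pdgfra, the PDGF receptor of these precursors, was not called, at 0.04 (SE 0.05). Of 6 tested radial glia and astrocyte genes 1 fell (Fabp7, -0.29) and 1 rose (Hes1). Of 9 tested myelin genes 6 fell and 1 rose, where 4 fell with DESeq2 and in thinned cells and 3 with Ier2 left out of the score. Cnp, an enzyme of myelin membranes, fell by 0.34 (SE 0.04), and Opalin rose by 0.51 (SE 0.10). Hes1, a Notch target, rose by 1.51 (SE 0.22) from low levels, at 2.96, 7.17, 3.06 and 2.97 CPM against 0.895, 2.55, 1.35 and 0.662, and was not called in thinned cells (0.83, adjusted p = 0.0597, edgeR). Hes1 passed the abundance filter only through its high cells, so its call and ratio rest on few UMIs in low cells. Of 90 ribosomal protein genes, whose many processed copies make single genes uncertain, 65 fell and none rose, with a median of -0.14, and with library size scaling 45 fell, in thinned cells 34, and without cells holding a UMI of Mki67 or Top2a 13. Of 14 mitochondrially encoded genes 7 fell, with a median of -0.14. Some of the uncalled ones were near the floor: mt-Co2 stood at 1.32 to 5.24 CPM, mt-Co3 at 0.493 to 2.48 and mt-Atp6 at 2.16 to 5.46. By contrast mt-Co1 stood at 2333 to 5813 CPM. With library size scaling 4 fell and 1 rose, without replicate 3 or 4 the falls were 3 and 4, and without cells holding a UMI of Mki67 or Top2a there were 0. The nuclear RNA Malat1 was not called, at -0.00 (SE 0.04), but was called higher without cells holding a UMI of Mki67 or Top2a (0.30, adjusted p = 0.0307, edgeR), while Kcnq1ot1 fell by 0.22 (SE 0.06), a call lost under several settings. The fibroblast, neuron and T cell lists had 1 gene tested each, Col1a1, Syt1 and Cd3g, and none was called. Syt1, at -0.11, was called lower within depth bins (-0.23, adjusted p = 0.0476, edgeR) and with Fos left out of the score (-0.27, adjusted p = 0.0283, edgeR).

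**Figure D3:**
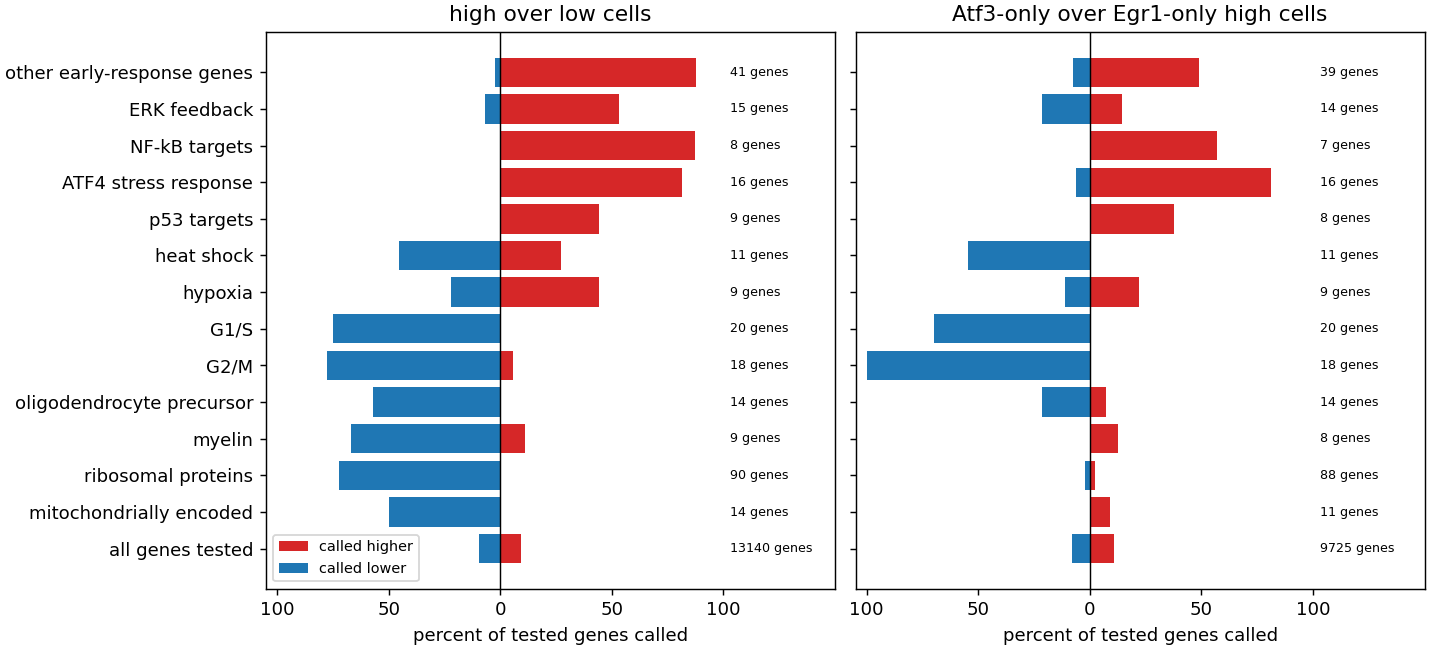
Percent of the tested genes of each list called higher (right, red) or lower (left, blue), for high over low cells (left panel) and for Atf3-only over Egr1-only high cells (right panel), with all genes tested as the bottom bar. Early-response, NF-kB and ATF4 genes extend to the right and G1/S and G2/M genes to the left in the left panel, against 9.53% and 9.61% of all genes.

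The high cells were not uniform in which score genes they held. Atf3 was detected in 45.8%, 47.9%, 28.8% and 29.1% of them and Egr1 in 85.4%, 62.0%, 69.6% and 70.2%, and both in 37.9%, 26.8%, 19.4% and 18.8%. High cells with Atf3 and no Egr1 numbered 32, 113, 57 and 29, and those with Egr1 and no Atf3 192, 189, 307 and 145. This split was chosen after the data were seen. Atf3 and Egr1 are themselves score genes, so the split uses values that also chose the high cells, and what follows is a description. The calls and SEs given for it order the genes. They do not test whether the high cells hold distinct kinds of cell. Median UMIs were 14798, 10777, 9933 and 7850 in the first and 14474, 11500, 10997 and 8799 in the second. Summed and compared in the same way, they differed in 1852 of 9725 genes (19%), 1058 higher (10.9%) and 794 lower (8.16%) in the Atf3-only cells. All 12 of the largest rises were higher and all 8 of the largest falls lower in the Atf3-only cells than in the Egr1-only cells. Those genes were picked in the high-low comparison, whose high cells include these same cells, so this match is not independent of that comparison. Without replicate 3, 1102 genes, all 12 rises and 3 of the 8 falls were called, and without the library block 278 genes, 9 rises and 1 fall.

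Nupr1 stood at 462, 249.6, 163 and 182 CPM in the Atf3-only cells of replicates 1 to 4 and at 5.31, 7.93, 6.22 and 7.78 CPM in the Egr1-only cells, a log2 ratio of 5.26 (SE 0.21). It passed the abundance filter of this fit only through the Atf3-only cells. The Egr1-only values of Nupr1 lie within the range of the low cells, from 4.85 to 8.95 CPM. Trib3 stood at 40.5, 106, 116 and 148 CPM against 7.09, 10.6, 12.2 and 13.4, a log2 ratio of 3.19 (SE 0.19). Of the 16 ATF4 genes 13 were higher and 1, Phgdh, lower, with a median of 1.18 against 0.01 over all genes. Lgals3 was higher by 3.24 (SE 0.17), Klf4 by 3.04 (SE 0.22) and Cd68 by 2.77 (SE 0.17). Cxcl10 stood at 53.3, 92.5, 73.1 and 0 CPM in Atf3-only cells and 4.61, 8.81, 4.24 and 0.708 CPM in Egr1-only cells, a fitted log2 ratio of 3.61 (SE 0.26). Its direction did not hold in replicate 4, where it was rare, and it needed the Atf3-only cells to pass the abundance filter.

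All 18 G2/M genes were lower in the Atf3-only cells, with a median of -1.17. Mki67 stood at 81.0, 110, 83.1 and 63.4 CPM in Atf3-only cells and 272, 238, 347 and 328 CPM in Egr1-only cells, a log2 ratio of -1.68 (SE 0.15), with no overlap. The Mki67 values of the Egr1-only cells lie near those of the low cells given above. Cdc20 rose in the high cells as a whole, but its log2 ratio of Atf3-only over Egr1-only cells was -1.83 (SE 0.14). Egr2 stood at 4.26, 3.03, 6.65 and 0 CPM in Atf3-only cells against 17.7, 16.3, 17.5 and 21.9 in Egr1-only cells, a fitted log2 ratio of -2.16 (SE 0.41). Egr2 passed the abundance filter of this fit only through the Egr1-only cells, so its ratio rests on few UMIs in Atf3-only cells. Nr4a1 and Spry4 were lower too, at -0.80 (SE 0.14) and -0.88 (SE 0.22). Zfp36, Ier3 and Dusp6 were not called, at -0.35, 0.02 and -0.31. Of the oligodendrocyte precursor genes 3 were lower and 1 higher. The ERK list had 2 genes higher and 3 lower. Most tested genes of both lists were not called. Over all 9725 genes, 10.9% were called higher and 8.16% lower, so these few calls are not read as a result about either list.

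**Figure D4:**
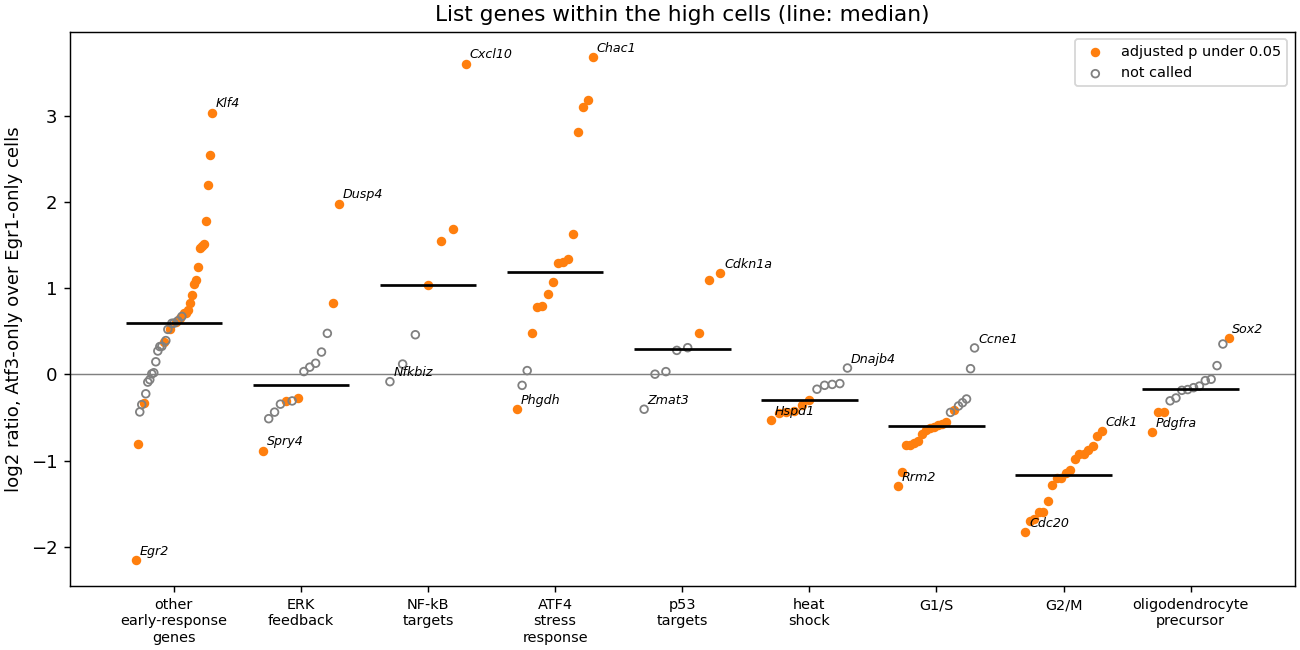
Log2 ratio of Atf3-only over Egr1-only high cells for each tested gene of 9 lists, in order of size within a list; filled points passed an adjusted p under 0.05, and the line is the median of the list. ATF4 genes reach 3.68 in Chac1, all G2/M genes lie below 0, and Egr2 at -2.16 lies farthest below 0 among the early-response genes. The split uses score genes, so these calls are a description.

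The same score was applied to the 2 GL261 libraries, which gave 436 and 452 high cells. The score genes had unlike shares in the cultures. Of the score UMIs in high cells, Fos held 6.69% and 6.93% in GL261 and 20.4% to 28.4% in GL261-GSCs. Junb held 31.0% and 34.6% against 11.6% to 18.6%. Over all cells Fos stood at 29.1 and 15.7 CPM in GL261 and 72.5 to 104 CPM in GL261-GSCs. Junb stood at 146 and 90.7 CPM against 47.8 to 53.8 CPM. The high cells of the cultures are thus not alike in their score genes. Summed over all cells that passed the filters, the score genes stood at 382, 291, 305 and 311 CPM in GL261-GSCs and 413 and 254 in GL261. The means of 322 ± 40.8 (SD, n = 4) and 334 ± 112 (SD, n = 2) differed by less than the spread between libraries (exact permutation p = 1, 2-sided; the smallest possible is 0.0667). The difference of high over low cells itself was compared between the cultures by an interaction term over 12 sums. It was called in 653 of 14567 genes (4.48%), with 478 larger (3.28%) and 175 smaller (1.2%) in GL261-GSCs. Single libraries moved this count: without GL261 replicate 1 the count was 217, without GL261-GSCs replicate 3 it was 404, and without the library block edgeR called 0 genes, with 283 at an unadjusted p under 0.05. DESeq2 and limma-voom with the block called 263 and 676.

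Several of the rises were larger in GL261-GSCs than in GL261. Nupr1 stood at 73.6 and 55.1 CPM in the high cells and 29.1 and 26.4 CPM in the low cells of GL261, and its log2 ratio was larger in GL261-GSCs by 1.92 (SE 0.19, adjusted p = 6.03e-07, edgeR interaction). Gdf15, Trib3, Cd68, Lgals3 and Id3 were larger by 0.94, 1.03, 1.85, 1.88 and 1.87. Lgals3 and Id3 went the other way in GL261: Id3 stood at 826 and 749 CPM in high and 1014 and 954 CPM in low cells there, at levels far above the 59.5 to 103 CPM of GL261-GSCs high cells. Isg15, an interferon-induced ubiquitin-like protein, rose by 1.31 (SE 0.10) in GL261-GSCs and stood at 263 and 82.3 CPM in high and 291 and 89.0 CPM in low cells of GL261, an interaction of 1.43 (SE 0.14). Egr2 was larger by 3.03 (SE 0.44) and Klf4 by 1.14. The GL261 libraries were uneven for Egr2, at 17.1 against 2.05 CPM in replicate 1 and 6.01 against 4.06 CPM in replicate 2.

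Other genes had a smaller log2 ratio in GL261-GSCs than in GL261. The predicted gene Gm26870 at the start of chromosome 9 (3000282 to 3038313) stood at 367 and 42.7 CPM in the high cells and 42.4 and 7.70 CPM in the low cells of GL261, and rose by 0.42 (SE 0.12) in GL261-GSCs, a call lost under 5 settings that keep the block, an interaction of -2.51 (SE 0.17, adjusted p = 1.80e-09, edgeR). Ddit4l, an inhibitor of mTOR signalling (chromosome 3, 137621612 to 137628333), stood at 14.7 and 20.5 CPM against 6.12 and 9.17 in GL261 and fell by 0.69 (SE 0.13) in GL261-GSCs, a call lost in thinned cells and without cells holding a UMI of Mki67 or Top2a, an interaction of -1.91 (SE 0.19). Btg2 differed by -1.11 and Cdkn1a by -0.46. Of 20 G1/S genes, 13 had a smaller log2 ratio in GL261-GSCs, with a median interaction of -0.41 over the list. The log2 ratios of these 13 were -0.46 to -0.04 in GL261-GSCs and above 0 in GL261, at 0.11 to 0.42. Of 18 G2/M genes 9 had a larger and 2 a smaller log2 ratio in GL261-GSCs. Of the largest rises, Spp1, Hmox1, Ddit3, Ppp1r15a, Gadd45a and Dusp4 were not called in this test. The 8 microglia and macrophage markers summed to 10.0 and 13.1 CPM in the high cells of the 2 GL261 libraries, above the GL261-GSCs values given at the start, and to 12.4 and 11.7 in the low cells. Their part in the difference between the cultures was not tested.

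**Figure D5:**
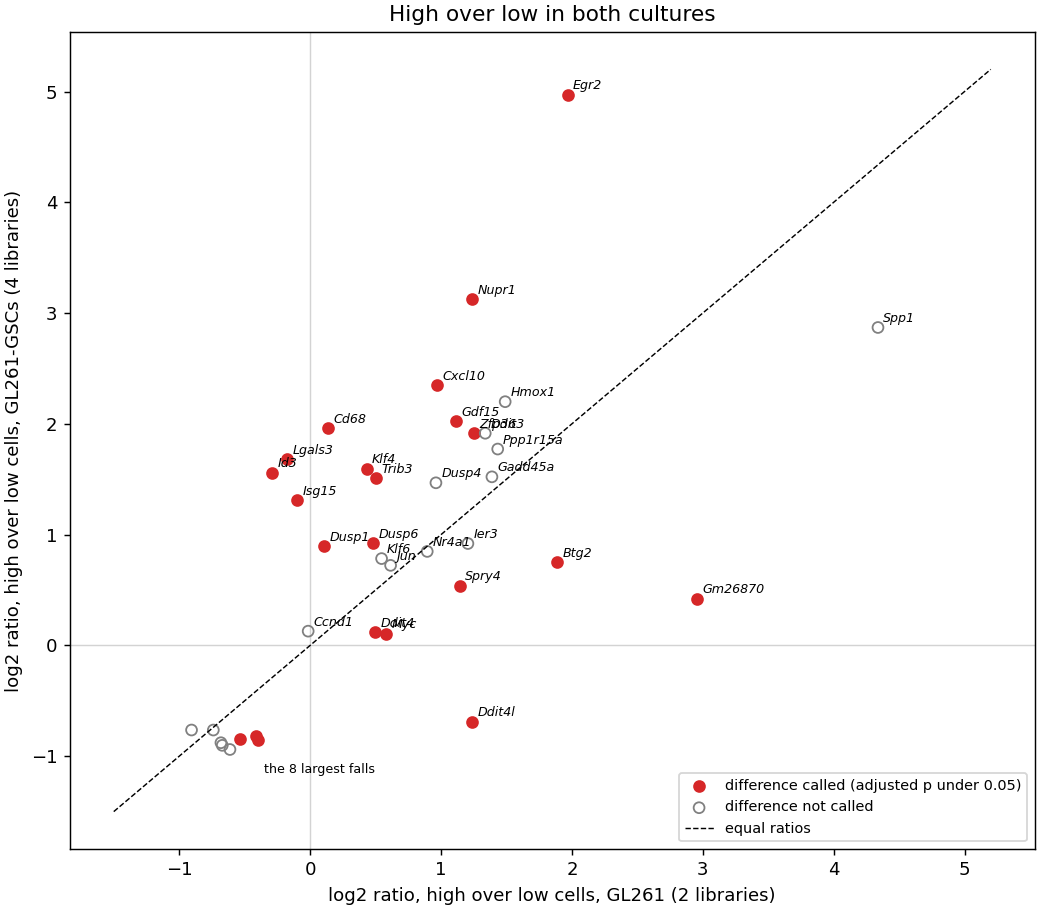
Log2 ratio of high over low cells in GL261 (2 libraries, horizontal) and GL261-GSCs (4 libraries, vertical) for the named signalling and stress genes, the largest rises and falls and the 4 genes with the smallest interaction p; filled points passed the interaction test. Egr2, Nupr1, Cd68, Lgals3 and Id3 lie above the line of equal ratios, and Gm26870, Ddit4l and Btg2 below it.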

How the data were processed

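Single-cell RNA counts of 6 libraries were used, 2 of GL261 and 4 of GL261-GSCs. The authors deposited raw UMI counts per gene and barcode; per the file headers they came from Cell Ranger 4, and per the submitters' processing notes the build was mm10. Any filter of the authors on barcodes was not given in the sources used here. Of 54446 gene identifiers, 99.93% matched GENCODE M21 (GRCm38) without their version, and positions come from there. Symbols listed for more than 1 gene were kept apart.

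Cells were barcodes with at least 5000 UMIs, at least 500 genes and under 10% mitochondrial UMIs. No doublet caller was run. In each library, cells in the top 10% of the score were summed as high and those in the lowest 50% as low. Sums were compared with the edgeR 4.0.16 quasi-likelihood test (TMM scaling, filterByExpr, Benjamini-Hochberg adjustment over all genes tested, threshold 0.05) in R 4.3.3, with the library as a block, since both sums of a pair come from 1 library. The 6 score genes stayed in the totals and were left out of the test. The cultures were compared by an interaction over 12 sums. SEs are the log2 ratio over the square root of F. Ratios within a library used a pseudocount of 0.5 CPM. Exact permutation tests were used for single values. CPM (counts of UMIs relative to their total) used TMM-scaled totals for tested genes and plain totals for score genes and marker sums. DESeq2 1.42.0, limma 3.58.1 (voom), other scalings, filters, depths, classes and left-out libraries were alternatives.

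The genes named were the 12 largest rises and 8 largest falls among called genes at a mean log2 CPM of 4 or more with 1 direction in all 4 libraries, leaving out predicted, mitochondrial and ribosomal protein genes, a fixed list of signalling, stress and lineage genes, per list the gene of smallest p, and the 4 genes with the smallest interaction p. One gene of that fixed list is not reported here. Other genes of the lists are given as examples. The members, the rule and the lists were chosen with earlier results of these data known. The score without each gene in turn and the split by Atf3 and Egr1 were added after seeing the data. On simulated sums with 199 changed genes among 12987 for the high-low comparison, edgeR recovered 94 of 99 genes changed by 1 on the log2 scale and 76 of 100 changed by 0.5, with 6 false calls among 176. The simulation gave all genes 1 common dispersion (0.002018) and each changed gene the same effect in every library. Real genes vary more than this in both, so these figures do not measure the false calls in the real data. Promoters and motifs used the RefSeq table of 27025 genes; Egr1, Ier2 and Hmox1 were not shown.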

Additional observations from a re-analysis of the deposited data

Results flagged for a closer look

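In groups of 4 libraries, 6 of 79 values looked at had 1 library standing apart from the other 3, where chance gives about 1 in 20. In these 6 the gap to the nearest library took a share of 0.834 to 0.926 of the range. Many of the 79 values come from the same libraries and are not independent, so the chance rate is only a rough guide. GL261-GSCs replicate 1 was highest in the median score of all cells (250 CPM) and in the score level of the low cells (125.8 CPM). It was lowest in the log2 ratios of Trib3 (0.52) and Ero1l (0.3151). Replicate 4 was highest in Fosb of the high cells (3.369 CPM, from 9 UMIs) and in the log2 ratio of Mdm2 (0.682).

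The log2 ratio of high over low cells differed between the cultures in 28 of the 58 named genes tested (edgeR interaction, GL261-GSCs minus GL261, adjusted p under 0.05), where 4.48% of all genes did. It was larger in GL261-GSCs for Egr2 (3.025), Nupr1 (1.917), Lgals3 (1.876), Id3 (1.87), Cd68 (1.848), Isg15 (1.433), Cxcl10 (1.391), Klf4 (1.14), Trib3 (1.032), Gdf15 (0.9382), Dusp1 (0.8141), Zfp36 (0.6947), Dusp6 (0.4649), Mdm2 (0.4583), Ero1l (0.4198), Col1a1 (0.3941) and Malat1 (0.2292). It was smaller for Gm26870 (-2.509), Ddit4l (-1.909), Btg2 (-1.107), Spry4 (-0.5771), Cdkn1a (-0.4553), Myc (-0.4498), Aurkb (-0.4227), H2afx (-0.3739), Pcna (-0.37), Ddit4 (-0.3539) and Cdk1 (-0.2835). Several of these genes were named because of this test or of the high-low test, so their share is no measure for other genes. Without the library block edgeR called none of the 14567 genes in this test, as given above.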

How the results depend on the processing

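The 2515 genes called between high and low cells were 1270 with DESeq2, 1226 with cells thinned to 5000 UMIs, 1011 without cells holding a UMI of Mki67 or Top2a (which leaves 42 to 98 high cells a library and 10293 genes to test), and 13 without the replicate block (593 at an unadjusted p under 0.05). Leaving out 1 library gave 1305 (replicate 3) to 2184 genes. The other settings gave 1969 to 3239, and no filter 3173, with 1002 higher and 2171 lower. The 653 interaction calls were 263 with DESeq2, 214 with thinned cells, 176 without cells holding a UMI of Mki67 or Top2a, 0 without the replicate block, and 217 (without GL261 replicate 1) to 634 with 1 library left out. The 1852 genes between Atf3-only and Egr1-only cells were 932 with DESeq2, 278 without the replicate block and 1102 to 1652 with 1 library left out. The left-out score genes were called in 4 to 6 of 6 cases under every setting tried. The block pairs the 2 sums of a library, so the fit without it adds the spread between libraries to the error.

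The score level of GL261-GSCs minus GL261 was -11.15 CPM and ran from -90.65 to 68.36 with 1 library left out, the last without GL261 replicate 1. Over 58 named genes and 1268 alternatives, 1143 kept direction and call, 97 lost the call, 7 gained it and 21 changed direction. Of 52 called genes, 32 were called under every alternative but the fit without the block, where 8 were. Without cells holding a UMI of Mki67 or Top2a the direction changed in Nusap1 (0.88), Cdc25b (0.16), Myc (-0.16), Pdgfra (-0.25) and Malat1 (0.30, then called). Pdgfra was also negative with no filter (-0.020), within depth bins (-0.015) and with the score without Fos (-0.029) or Egr1 (-0.022), as was Ddit4 without Fos (-0.083), which was called higher under 5 other settings. Malat1, at a main value near 0, was positive with DESeq2 (0.0028), limma-voom (0.0043), library size scaling (0.048), against all other cells (0.012), with the score without Egr1 (0.077), Junb (0.019) or Ier2 (0.13), and without replicates 1, 3 and 4, with -0.082 to 0.051 over the libraries left out. With 1 library left out Syt1 ran from -0.21 to 0.00021, the last without replicate 4, and it was called within depth bins (-0.23) and with the score without Fos (-0.27). The causes of these changes were not tested.

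The difference in the share of cells with a UMI of Mki67 or Top2a was -7.39 to -3.96 percentage points under every setting tried, but above 0 in replicate 4 for the top 5% (4.17) and for classes set on thinned cells (0.198). Depth limits the score, which rests on a median of 10 to 20 UMIs in a high cell, and Fosb on 33 UMIs in all high cells.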
